A study of Mus musculus with 7 samples.

Results

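The miRNAs described here come from 5 hairpins, those of miR-431, miR-433, miR-127, miR-434 and miR-136, which lie next to each other on chromosome 12 in the imprinted Dlk1-Dio3 region. They were taken by name (mmu-miR-431, mmu-miR-433, mmu-miR-127, mmu-miR-434 and mmu-miR-136, all arms) and by position. The group was nevertheless chosen by someone who knew the measured levels and group differences of these libraries, those of miR-136 among them, so the differences between groups are given as descriptions. Both arms of each hairpin were measured, which made 10 products of the 756 mature miRNA sequences in the series. All 10 lay inside the position window, and no product of these hairpins mapped outside it.

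In the Dlk1-Dio3 region the maternal chromosome produces non-coding RNAs, among them Meg3, the antisense transcript of Rtl1, Rian and Mirg, and the paternal chromosome produces the protein-coding genes Dlk1, Rtl1 and Dio3. Rtl1 is a retrotransposon-derived gene, and the hairpins of the antisense transcript are cut from the strand opposite its coding sequence. The mature miRNAs therefore match the Rtl1 mRNA perfectly and are known to direct its cleavage. A second, larger cluster of the region, from miR-379 to miR-410, lies further downstream and is known for its expression in neurons.

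Hippocampal small RNA was sequenced in 7 libraries of adult C57BL/6 mice of 3 to 5 months, as pooled tissue, to ask which miRNAs change with inhibition of protein phosphatase 1 (PP1) and with training on an object recognition task. The labels assign library 1 to untrained wild-type mice (non-trained control), library 2 to untrained NIPP1* mice (non-trained NIPP1*), libraries 3, 4 and 5 to trained wild-type mice (trained control), and libraries 6 and 7 to trained NIPP1* mice (trained NIPP1*). In NIPP1* mice a doxycycline diet turns on, in forebrain neurons, a tetO transgene that encodes EGFP joined to the part of NIPP1 that binds and inhibits nuclear PP1, and the activator rtTA2 is made from the CaMKIIalpha promoter. Non-trained mice visited the same chamber without objects, and how the animals were divided among libraries is not stated in the sources used here, so the spread between libraries may be technical.

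The libraries held between 7285432 and 10017980 miRNA reads, and levels are reads per 1000000 miRNA reads of the library (RPM). Summed over 13 products, the miRNAs used as neuronal markers (miR-124, miR-9, miR-128, miR-138 and miR-218) reached 214500 to 243900 RPM. Small RNA does not measure the transgene, so the genotype could not be checked. The trained libraries go against their labels in the group means the authors deposited. Their trained control means were rebuilt from libraries 6 and 7 with a root mean square error of 0.0186% over 318 miRNAs, against 15.6% from the labelled libraries 3, 4 and 5, and their trained NIPP1* means were rebuilt from libraries 3, 4 and 5 with an error of 0.0228%, against 18.2% from libraries 6 and 7. The best set of 3 libraries for the trained control means, libraries 3, 6 and 7, had a like error of 0.0184% with a weight of 0.0124% for the library of least weight. For miR-136 the authors' mean of reads divided by size factors was 169832 for trained control and 125876 for trained NIPP1*. The labels are followed here, library numbers are given throughout, and the differences of miR-136 and miR-434-3p, with the counts and medians of the group, are also given for the grouping of the deposited tables. Between the trained groups that grouping turns the sign of every difference, those of the cell type markers included.

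The mature sequences of all 10 products were found in the RefSeq table (GRCm38.p6) and are identical to the reference genome at the mapped positions. They are shown because the seed decides which mRNAs a miRNA recognises. Capitals mark the seed, bases 2 to 8 from the 5′ end, and the products stand in order of position along the antisense transcript.
miR-431: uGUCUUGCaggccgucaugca
miR-431*: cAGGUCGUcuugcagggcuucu
miR-433*: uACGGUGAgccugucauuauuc
miR-433: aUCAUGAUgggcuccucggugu
miR-127*: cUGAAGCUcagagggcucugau
miR-127: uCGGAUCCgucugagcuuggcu
miR-434-5p: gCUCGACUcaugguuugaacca
miR-434-3p: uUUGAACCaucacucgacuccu
miR-136: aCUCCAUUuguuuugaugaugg
miR-136*: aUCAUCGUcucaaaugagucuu
The 10 seeds were 10 different sequences, and none was shared with any of the other mature sequences of the series, so the group is one of position and not a seed family. The arms of miR-434 shared 2 runs in opposite order, UUUGAACCA of 9 bases, at the 5′ end of miR-434-3p and the 3′ end of miR-434-5p, and CUCGACUC of 8 bases. Both products of miR-136 were poor in G and C, at 36.4% of their bases, against 59.1% for miR-127 and a median of 47.8% over all mature sequences.

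In mm9 the hairpins run along the plus strand of chromosome 12 from 110828657 to 110833608, a span of 4952 bp, and 717 to 1577 bp separate one from the next. The Rtl1 gene lies on the minus strand from 110827404 to 110838540, and its coding sequence from 110828382 to 110833613. All 10 products lie inside that coding sequence, which makes them exonic and antisense. miR-136 occupies chr12:110833541-110833562, miR-434-3p chr12:110832775-110832796 and miR-127 chr12:110831098-110831119. The reverse complement of each product occurs once in the Rtl1 mRNA of the GENCODE vM1 annotation, whose coding sequence is 5235 bases long. The sites of the 3 most abundant products are shown as the mRNA reads, with the bases opposite the seed in capitals.
Site of miR-136 in Rtl1: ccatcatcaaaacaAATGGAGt
Site of miR-434-3p in Rtl1: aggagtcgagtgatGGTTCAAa
Site of miR-127 in Rtl1: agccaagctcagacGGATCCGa
The site of miR-136 starts at base 52 of the coding sequence, that of miR-434-3p at base 818 and that of miR-127 at base 2495, while the site of miR-431 at base 4925 is the last. Rtl1 mRNA itself was not measured in these libraries.

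**Figure D1:**
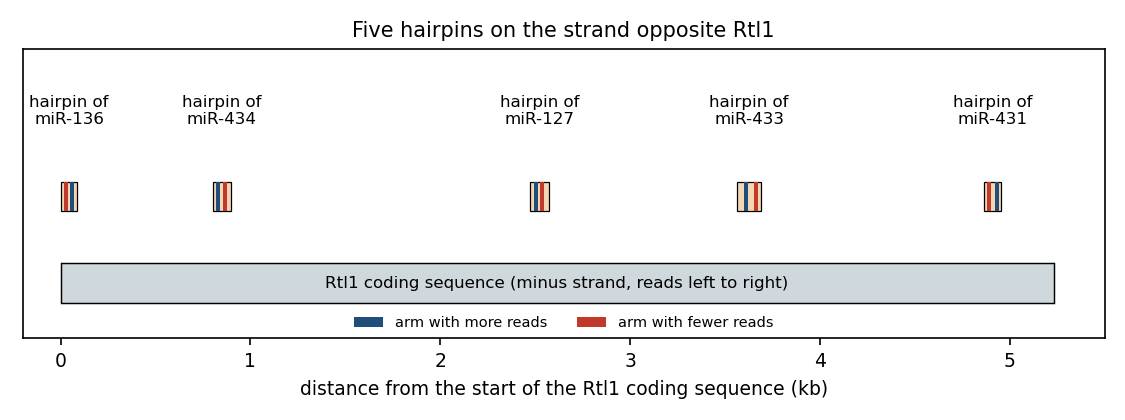
Map of the 5 hairpins (boxes, with the 2 mature arms inside them) on the strand opposite Rtl1, against the distance in kb from the start of the Rtl1 coding sequence. All 5 hairpins lie within the coding sequence, with that of miR-136 at its beginning and that of miR-431 near its end.

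The 10 products spanned several orders of magnitude, from miR-136 with a mean of 16876 RPM over the 7 libraries to miR-433* with 2.36 RPM. miR-136 ranked 12th, miR-127 ranked 15th and miR-434-3p ranked 32nd by mean level among all 756 sequences. Together the group made up 4.26% of the miRNA reads in library 1 and 3.95% in library 2. It made up 3.62%, 4.24% and 3.61% in libraries 3, 4 and 5, and 4.17% and 4.46% in libraries 6 and 7. The summed level of the trained groups overlapped, since library 4 lay above library 6.

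miR-127 (mmu-miR-127), the product by which the group is best known, was at 13920 RPM in library 1, 14080 RPM in library 2, 11440, 15040 and 12580 RPM in libraries 3, 4 and 5, and 11380 and 12440 RPM in libraries 6 and 7. Its highest and lowest libraries differed 1.32-fold, and the trained groups overlapped. Its opposite arm, miR-127*, stood at 1862 and 1782 RPM in libraries 1 and 2, at 1662, 1629 and 1409 RPM in libraries 3 to 5, and at 1523 and 1790 RPM in libraries 6 and 7. The same narrow spread of 1.32-fold was seen there.

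miR-434-3p (mmu-miR-434-3p) was at 5100 RPM in library 1, 7062 RPM in library 2, 5209, 5754 and 5100 RPM in libraries 3, 4 and 5, and 5007 and 5401 RPM in libraries 6 and 7. Library 2 stood above the other 6 libraries, whose values overlapped. miR-434-5p (mmu-miR-434-5p) did not stand out there, with 1414 RPM in library 1, 1398 RPM in library 2, 1245, 1202 and 1140 RPM in libraries 3 to 5, and 1063 and 1301 RPM in libraries 6 and 7. Both non-trained libraries lay above all 5 trained ones for miR-434-5p.

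miR-433 (mmu-miR-433) was the least even of the abundant arms, with 485 RPM in library 1, 482 RPM in library 2, 394, 734 and 577 RPM in libraries 3, 4 and 5, and 540 and 487 RPM in libraries 6 and 7. Its highest and lowest values, 1.86-fold apart, were both from trained control libraries. miR-431 (mmu-miR-431) was at 73.1 and 65.0 RPM in libraries 1 and 2, at 57.3, 60.1 and 53.0 RPM in libraries 3 to 5, and at 54.8 and 62.8 RPM in libraries 6 and 7, so that the non-trained libraries were again the 2 highest. miR-431* ranged from 31.2 to 45.0 RPM and miR-433* from 1.83 to 2.85 RPM, the latter from only 15 to 23 reads a library.

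**Figure D2:**
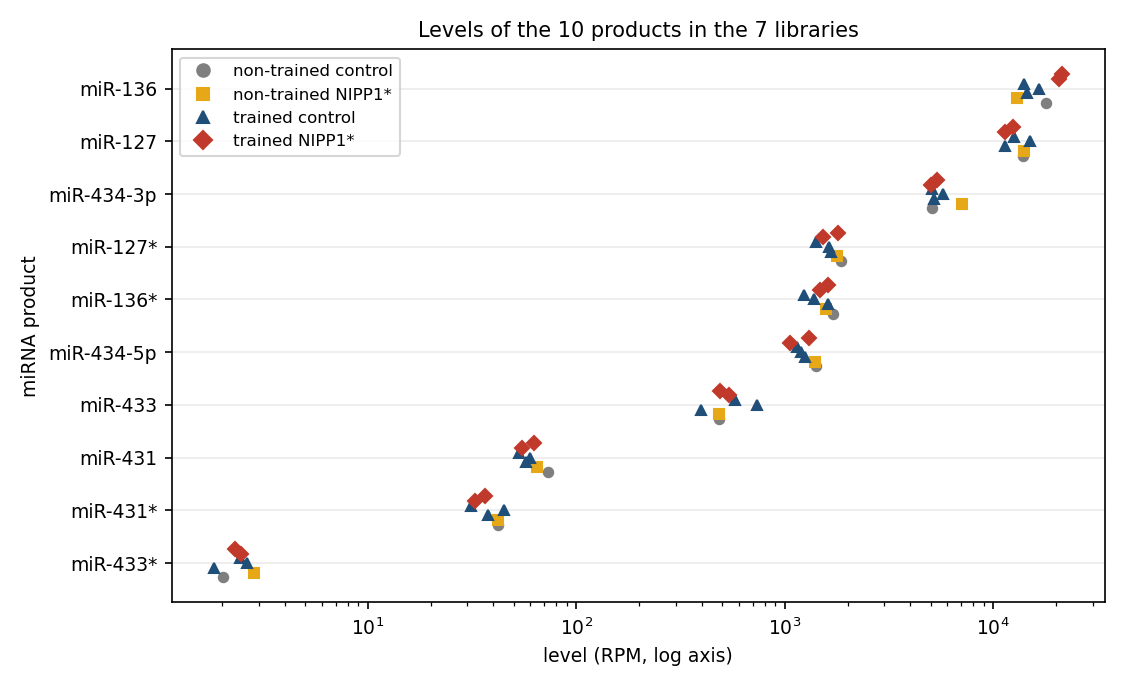
Level of each product in each library, in RPM on a log axis, with one point for a library and colour and shape for its group. For miR-136 the trained NIPP1* libraries (20580 and 21450 RPM) lie to the right of the other 5, and for miR-434-3p the non-trained NIPP1* library (7062 RPM) lies to the right of the other 6.

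Within each library the order of the levels was nearly fixed. miR-136 exceeded miR-127 in 6 of the 7 libraries, with a ratio between 0.924 and 1.81, and their ranges overlapped. miR-127 exceeded miR-434-3p at least 1.99-fold in every library, and miR-434-3p exceeded miR-127* at least 2.74-fold, with no overlap of ranges. miR-127*, miR-136* and miR-434-5p followed each other closely. miR-127* was above miR-136* by 1.03- to 1.18-fold and miR-136* above miR-434-5p by 1.09- to 1.38-fold, in 7 of 7 libraries for both, although their ranges overlapped. miR-433, miR-431, miR-431* and miR-433* came last, each separated from the one above it in every library.

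The hairpins differed in how strongly 1 arm prevailed, a ratio within a library that no scaling of libraries can change. For miR-433 the major arm was 169 to 279 times as abundant as its partner. The ratio was 6.88 to 9.23 for miR-127, 3.61 to 5.05 for miR-434 and 1.34 to 1.73 for miR-431. For miR-136 over miR-136* it was 10.6 in library 1, 8.24 in library 2, 9.0, 12.03 and 11.3 in libraries 3, 4 and 5, and 14.0 and 13.3 in libraries 6 and 7. The arms of miR-136 thus differed most unequally in libraries 6 and 7. Between its extremes this ratio moved 1.7-fold. Among the 72 single-locus hairpins whose arms both averaged 100 reads or more it was the 17th widest, and the median hairpin moved 1.43-fold. The trained groups did not overlap in the arm ratio of 29.2% of these hairpins, miR-136 included, so separation alone was common.

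**Figure D3:**
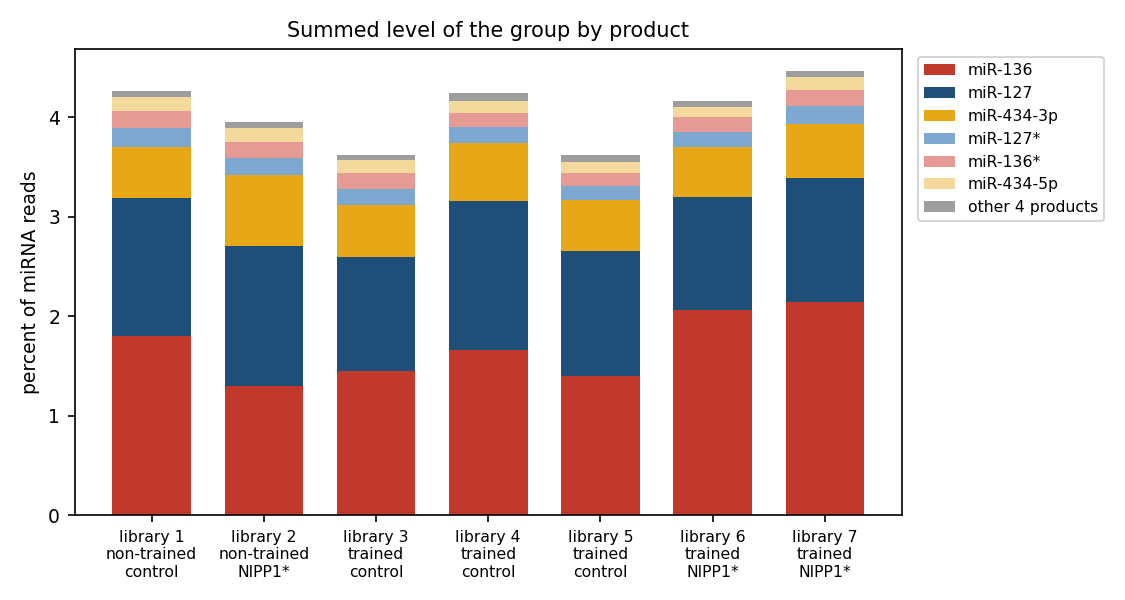
Percent of the miRNA reads of each library taken by the 10 products, stacked by product, with libraries named by their labelled group. The whole bars range from 3.61% to 4.46%, and the lowest segment, miR-136, is tallest in libraries 6 and 7.

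The libraries stood furthest apart, among the 3 most abundant members, in miR-136. miR-136 (mmu-miR-136) was at 18000 RPM in library 1, 13010 RPM in library 2, 14500, 16580 and 14010 RPM in libraries 3, 4 and 5, and 20580 and 21450 RPM in libraries 6 and 7. Libraries 6 and 7 lay above all 5 other libraries, library 1 came next, and library 2 was lowest. The trained NIPP1* mean was 21015 ± 615 RPM (SD, n = 2) and the trained control mean 15030 ± 1365 RPM (SD, n = 3). miR-136* from the same hairpin was at 1704 and 1579 RPM in libraries 1 and 2, at 1612, 1378 and 1239 RPM in libraries 3 to 5, and at 1469 and 1612 RPM in libraries 6 and 7, and its trained groups overlapped.

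As a share of the summed group, miR-136 took 42.3% in library 1, 32.9% in library 2, 40.1%, 39.1% and 38.8% in libraries 3 to 5, and 49.4% and 48.1% in libraries 6 and 7. Set against miR-127, miR-136 was at a ratio of 1.77 ± 0.060 in trained NIPP1* (SD, n = 2) and 1.16 ± 0.092 in trained control (SD, n = 3), with 1.29 in library 1 and 0.924 in library 2. The ratio of miR-136* to miR-127*, the minor arms of the same hairpins, stayed between 0.846 and 0.970 in all 7 libraries, and the groups overlapped there. Across the 7 libraries the log2 levels of miR-136 had Pearson correlations from −0.51 to 0.27 with the other 9 members, against a median of 0.49 over the 36 pairs formed by those 9. These products share libraries and scaling, so the correlations are descriptions of 7 points.

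**Figure D4:**
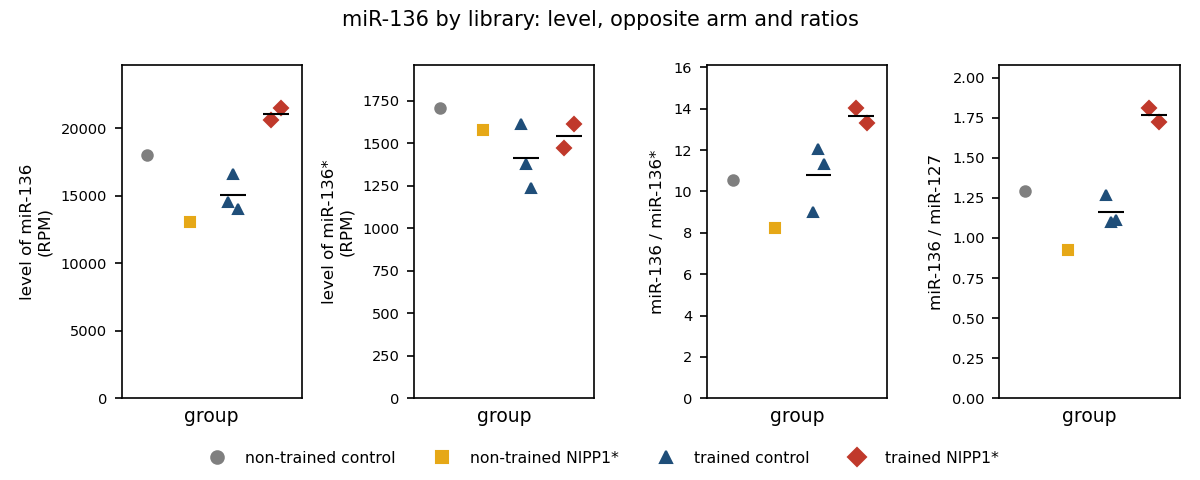
Level of miR-136 and of miR-136* (RPM) and the ratios of miR-136 to miR-136* and to miR-127, with one point for a library, placed by group, and a line for the mean of groups with more than 1 library. All axes start at 0, and the trained NIPP1* points lie above the rest for miR-136 and both ratios but among the rest for miR-136*.

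No marker of another cell type was called between the trained groups in limma, and 18.7% of all miRNAs were higher without overlap there. For red blood cells, of 4 products tested 3 (miR-451, miR-144 and miR-144*) were higher in both trained NIPP1* libraries than in any trained control library. The summed level of all 4 was 150 and 278 RPM against 73.2 to 143 RPM, so that the nearest libraries lay close together. It was 131.5 RPM in library 1 and 95.1 RPM in library 2. For oligodendrocytes, 3 of 5 products tested were higher without overlap, and the sum was 4672 to 5062 RPM against 3266 to 3707 RPM, with 5461 RPM in library 1 and 4400 RPM in library 2. Choroid plexus, leukocyte and microglial, and vessel markers overlapped between the trained groups in their sums, as did neuronal markers. For pituitary, 5 of 11 products tested had positive differences between the trained groups, 1 of them without overlap, with a median log2 difference of −0.02. The pituitary sum was 7804 to 11310 RPM in trained control and 11300 to 12120 RPM in trained NIPP1*, with 14480 RPM in library 1 and 10190 RPM in library 2. Most of it was miR-7a and miR-7b, with 9856 and 4281 RPM in library 1. The summed oligodendrocyte and pituitary markers thus lay, as miR-136 did, lower in library 2 than in library 1, lower in all trained control libraries than in library 1 and higher in both trained NIPP1* libraries than in library 2. In bulk tissue, fewer cells of a type and less RNA per cell cannot be told apart, and the part of these cell types in the level of miR-136 was not tested.

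The comparison of trained NIPP1* with trained control asks what PP1 inhibition changes after learning. miR-136 was higher by 0.49 ± 0.10 on the log2 scale (SE, limma on log2(RPM + 0.5)), 1.40-fold, and its adjusted p of 0.331 over 476 miRNAs did not pass 0.05. The other 9 members had values from −0.13 (miR-431*) to 0.13 (miR-136*). The median of the 10 was 0.01, and that of all 476 miRNAs was 0.04. With the grouping of the deposited tables the difference of miR-136 has the opposite sign, −0.49, by construction, and the median of the members is −0.01. Only miR-136 had trained groups that did not overlap, 1 of 10 higher where 18.7% of all miRNAs were, and none was lower where 7.77% were. The signs of the smaller values carry little weight, since miR-431 and miR-433* turned negative under TMM scaling (3 of 10 members positive in place of 5).

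Training was compared with no training within each genotype, against a single non-trained library. In control mice, miR-136 was at −0.26 ± 0.13 (log2 difference, SE), miR-431 at −0.36 ± 0.20 and miR-136* at −0.28 ± 0.18. In all, 7 of the 10 members had negative values, with a median of −0.20 beside −0.09 over all miRNAs, and 5 (miR-431, miR-127*, miR-434-5p, miR-136 and miR-136*) had all 3 trained libraries below library 1, where 37.4% of all miRNAs did. None had all of them above, where 18.3% of all miRNAs did. miR-433, miR-433* and miR-434-3p were the members with positive values, from 0.07 to 0.18. Without library 4 the value of miR-433 was −0.03, so its sign rests on that library. With the grouping of the deposited tables miR-431 was at −0.32 and miR-136* at −0.15. The median of the members was then −0.16 beside −0.04 over all miRNAs, with 6 of 10 negative, and 6 lay below library 1 without overlap where 37.8% of all miRNAs did and 3 above where 28.8% did.

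In NIPP1* mice, miR-136 was higher in the trained libraries than in library 2 by 0.69 ± 0.14 on the log2 scale (SE, adjusted p = 0.363, limma), 1.62-fold. The summed markers of oligodendrocytes (4672 to 5062 RPM against 4400 RPM) and pituitary (11300 to 12120 RPM against 10190 RPM) were also higher there. So were those of red blood cells (150 and 278 RPM against 95.1 RPM) and vessels (16360 and 17280 RPM against 14860 RPM). Neuronal markers (228000 and 228800 RPM against 232400 RPM) and leukocyte and microglial markers (1163 and 1358 RPM against 1659 RPM) were lower. Choroid plexus markers lay on both sides (2137 and 857 RPM against 1800 RPM). The pituitary sum was mostly miR-7a and miR-7b, and miR-375 was lower (61.36 and 58.9 RPM against 69.87 RPM). The part of these cell types was not tested. miR-434-3p was at −0.44 ± 0.14 (SE, adjusted p = 0.962, limma), and library 2, in which it was high, is the only library on that side. Of the 10 members, 8 had negative values, with a median of −0.18 beside −0.03 over all miRNAs. The trained libraries lay below library 2 for 6 members where 39.5% of all miRNAs did, and above it for miR-136 and miR-433 where 30.7% did. With the grouping of the deposited tables the training difference of miR-136 was 0.22 in control and 0.20 in NIPP1* mice, and that of miR-434-3p was 0.03 and −0.40. In NIPP1* mice 8 of 10 members were then negative, with a median of −0.18 beside −0.09 over all miRNAs, and 5 lay below library 2 without overlap where 29.2% of all miRNAs did and 1 above where 10.5% did.

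**Figure D5:**
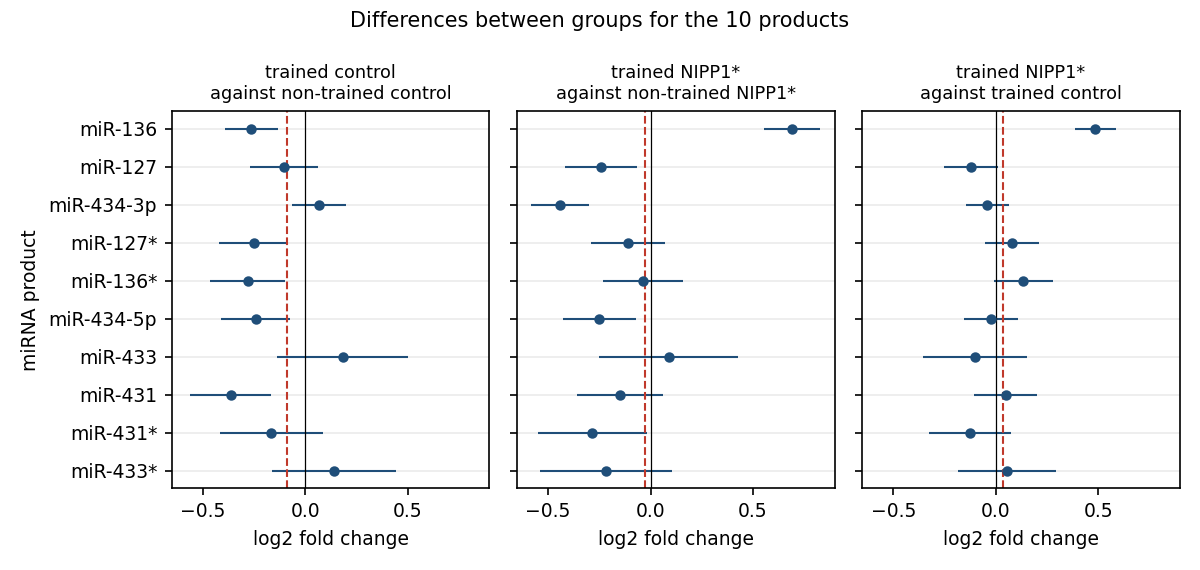
Log2 fold change of each product in 3 comparisons, with bars of 1 standard error from the limma model of the 7 libraries and a dashed line at the median of all 476 miRNAs tested. miR-136 is the product furthest to the right in the NIPP1* training comparison (0.69) and between the trained groups (0.49), and in control mice it lies at −0.26.

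The difference of the training effect between the genotypes was 0.96 ± 0.19 for miR-136 (log2, SE, adjusted p = 0.288, limma) and −0.51 ± 0.19 for miR-434-3p (adjusted p = 0.577, limma), with the remaining 8 members between −0.36 and 0.24. With the grouping of the deposited tables these differences were −0.02 for miR-136 and −0.43 for miR-434-3p. Over both genotypes together, the trained libraries were at 0.21 ± 0.09 for miR-136 (log2, SE), and 8 of 10 members had negative values (7 under TMM scaling), as did 288 of all 476 miRNAs, with medians of −0.18 and −0.05. Here the trained and non-trained libraries did not overlap for miR-431 and miR-434-5p, which were lower in all 5 trained libraries, 2 of 10 where 8.19% of all miRNAs were, and no member was higher without overlap, where 3.36% were. That count does not depend on which trained libraries were NIPP1*.

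No member passed an adjusted p of 0.05 in limma in any of these 5 comparisons, and neither did any of the 476 miRNAs (0.0% called). At an unadjusted p under 0.05 limma gave 28 miRNAs for training in control, 21 for training in NIPP1*, 34 between the trained groups, 37 for the difference of training effects and 16 for training over both genotypes. Members made up 0, 2, 1, 2 and 0 of these, and they were miR-136 (higher) and miR-434-3p (lower). For training in control, 1.26% of all miRNAs were higher and 4.62% lower at that level, and for training in NIPP1*, 2.73% were higher and 1.68% lower. Between the trained groups 4.62% were higher and 2.52% lower, for the difference of training effects 5.04% and 2.73%, and for training over both genotypes 1.26% and 2.1%. The counts at an unadjusted p depended on single libraries. In the same order of comparisons they were 108, 37, 113, 85 and 65 without library 3, 14, 18, 17, 24 and 10 without library 4, and 16, 20, 11, 28 and 13 without library 5. They were 16, 10, 15, 21 and 5 without library 6 and 15, 14, 10, 22 and 11 without library 7, and members made up 0 to 2 of each. With the grouping of the deposited tables the counts were 12, 9, 34, 6 and 16, with 0, 1, 1, 0 and 0 members. The quasi-likelihood test of edgeR on recovered reads called 0 miRNAs in each comparison, and the Wald test of DESeq2 called 1, 2, 1, 2 and 1, with miR-136 among them for training in NIPP1* (adjusted p = 0.0142) and for the difference of training effects (adjusted p = 0.0453). The call of miR-136 thus depended on the tool.

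The non-trained NIPP1* and control libraries were compared to see what PP1 inhibition does without learning, with 1 library a group and no replicate check. miR-136 was lower in the NIPP1* library, with a log2 ratio of −0.47 (exact 95% interval −0.48 to −0.46, counting error only, from 105026 and 160041 reads). The summed markers of oligodendrocytes (4400 RPM against 5461 RPM) and pituitary (10190 RPM against 14480 RPM) were also lower in that library. So were those of red blood cells (95.1 RPM against 131.5 RPM) and neurons (232400 RPM against 243900 RPM). Choroid plexus markers (1800 RPM against 1501 RPM) and leukocyte and microglial markers (1659 RPM against 1302 RPM) were higher there. Vessel markers were nearly level (14860 RPM against 14890 RPM). The part of these cell types was not tested. miR-434-3p was higher at 0.47 (0.45 to 0.49, from 57009 and 45345 reads). Among the 322 miRNAs that averaged 100 reads or more in these libraries, miR-434-3p was the 9th from the top and miR-136 the 14th from the bottom. The other 7 members at that depth lay between −0.17 (miR-431) and 0.02 (miR-127), and miR-433*, with 23 and 18 reads, had an interval from −0.46 to 1.47. No member passed a log2 ratio of 1 in size, where 0.621% of all miRNAs were higher and 0.311% lower. The median of the 9 members was −0.02, and that of the 322 miRNAs was 0.02.

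The other miRNAs of the region were set beside the group. The position window held 20 products of other hairpins, and the miR-379 to miR-410 cluster held 69. The members together were 25.6 to 33.3 times as abundant as these neighbours and 2.43 to 2.88 times as abundant as the cluster. Among the neighbours miR-770-3p (mean 412 RPM) and miR-341 (325 RPM) were the most abundant, and in the cluster miR-541 (2951 RPM) and miR-369-3p (2339 RPM). miR-541 spread only 1.22-fold over the libraries. Among the 40 cluster products and 12 neighbours that averaged 100 reads or more, miR-300* and miR-667 had the widest spread of the cluster at 2.13- and 2.01-fold, and miR-337-3p and miR-770-5p that of the neighbours at 2.08- and 1.82-fold. Among members with at least 100 reads the widest were miR-433 at 1.86-fold and miR-136 at 1.65-fold, against a median of 1.45-fold over 319 miRNAs.

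Neither list held a called miRNA in limma in any of the 5 comparisons. For trained NIPP1* against trained control, 12 of 56 cluster products and 1 of 14 neighbours tested were higher without overlap, where 18.7% of all miRNAs were, and 3 and 0 were lower, where 7.77% were. Their median log2 differences were 0.10 and −0.01. For training in control mice the median of the cluster was −0.19 and that of the neighbours 0.03, and for training in NIPP1* mice they were 0.03 and −0.01. With the grouping of the deposited tables the medians were −0.06 and −0.03 for training in control and −0.07 and 0.01 for training in NIPP1*, so 3 of these 4 signs rest on the assignment of the libraries. The ratio of miR-136 to the summed cluster was 1.14 in library 1, 0.886 in library 2, 0.972 to 1.10 in libraries 3 to 5, and 1.37 and 1.38 in libraries 6 and 7. This ratio was highest in libraries 6 and 7.

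Among 258 miRNAs outside the region that averaged 100 reads or more, those whose log2 level was most like the summed group over the 7 libraries were miR-708 (Pearson r = 0.86), miR-3059 (0.82), miR-340-3p (0.80), miR-330 (0.77) and miR-298 (0.76). Most like miR-136 alone were miR-340-3p (0.94), miR-152 (0.92) and miR-708 (0.92). miR-152, for example, was at 260.5 RPM in library 1, 184 RPM in library 2, 197 to 210 RPM in libraries 3 to 5, and 246.5 and 277 RPM in libraries 6 and 7. These are the highest of 258 values, over 7 points of shared libraries, and are given as a description.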

How the data were processed

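Small RNA libraries were made with a TruSeq small RNA kit, size-selected on a gel and sequenced. The authors kept inserts of 19 to 26 nt and mapped them with bowtie in the ncPRO-seq pipeline to mm9, and the submitters' processing notes also name CASAVA 1.7.0 and bedtools. Per the file headers and values, the deposited percent is the share of the miRNA reads of a library at each mature locus, and the deposited tables give the authors' mean of reads divided by size factors as a signal per group. Fold changes, p-values and residual variances of these tables were not used. Percentages were multiplied to RPM, and 806 loci were joined by sequence to 756, since copies each carry all reads. Low percentages step by the worth of 1 read, which gave back read counts, and of values up to 100 reads 99.1% to 99.7% were whole within 0.1 read. Intervals cover counting error only.

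limma with a trend was fitted to log2(RPM + 0.5) for the 476 miRNAs averaging 10 or more reads, in all 7 libraries and 4 groups, with Benjamini-Hochberg adjustment. For miRNAs of low level the pseudocount makes fold changes smaller than they are. Alternatives were TMM scaling, other pseudocounts and minimums, edgeR, DESeq2, fits of only the groups compared, the tables' grouping and leaving out each library. Members and lists were chosen with earlier results of these data known. All products of the hairpins are named, with neighbours by level and spread and others by likeness. Software comprised Python 3.11.15 with pandas 2.3.3, scipy 1.17.1, numpy 2.4.6 and matplotlib 3.10.9, and R 4.3.3 with DESeq2 1.42.0, edgeR 4.0.16 and limma 3.58.1.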

Additional observations from a re-analysis of the deposited data

Results flagged for a closer look

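The training differences of miR-136 had opposite signs in the 2 genotypes, and neither passed in limma (adjusted p = 0.666 in control and 0.363 in NIPP1*). Every trained control library lay below the non-trained control library, with a mean log2 ratio of −0.26, and every trained NIPP1* library lay above the non-trained NIPP1* library, with a mean log2 ratio of 0.69. Each side rests on 1 non-trained library, the limma test of the difference gave an adjusted p of 0.288, and with the grouping of the deposited tables both ratios are positive (0.22 and 0.20). The summed markers of oligodendrocytes and of pituitary had the same directions. They were at 5461 and 14480 RPM in library 1 against 3266 to 3707 and 7804 to 11310 RPM in trained control. In library 2 they were at 4400 and 10190 RPM against 4672 to 5062 and 11300 to 12120 RPM in trained NIPP1*. Unlike miR-136, both sums were highest in library 1. They were mostly miR-338-3p, or miR-7a and miR-7b, and other products did not all follow. With the grouping of the deposited tables the oligodendrocyte sum was lower after training in both genotypes. The pituitary sum was then lower in control and lay on both sides of library 2 in NIPP1* mice. The part of these cell types was not tested. No group had enough libraries for a test of single outlying samples.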

How the results depend on the processing

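The number of miRNAs called was 0 in each of the 5 tested comparisons and stayed 0 under TMM scaling, pseudocounts of 0.1 and 1, no count minimum, a minimum of 100 reads, edgeR, fits of only the groups compared where run, the grouping of the deposited tables, and without each library in turn where a value could be had. Leaving out the only non-trained library of a side gives no value for the training comparison of that genotype, the difference of training effects or training over both genotypes, so these results could not be checked against library 1 or library 2. The Wald test of DESeq2 on recovered reads called 1 miRNA for training in control (miR-129-2-3p), 2 for training in NIPP1* (miR-136 and miR-146a), 1 between the trained groups (miR-344d-3*), 2 for the difference of training effects (miR-136 and miR-344d-3*) and 1 for training over both genotypes (miR-129-2-3p). The cause was not tested. No member passed a log2 ratio of 1 in the non-trained pair under any scaling, pseudocount or background tried.

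Without 1 of the trained libraries, or the non-trained library of the other genotype, the log2 difference of miR-136 ran from 0.44 to 0.56 between the trained groups, from 0.66 to 0.72 for training in NIPP1*, from −0.34 to −0.22 for training in control and from 0.91 to 1.03 for the difference. Of 755 values of single members under an alternative, 18 moved by more than 1 SD, 12 of them with the grouping of the deposited tables and 6 for miR-434-5p without library 6 or 7, where its difference between the trained groups was 0.12 or −0.17. No paired analysis was possible because the labels number the libraries once across all groups, so no number is shared between groups, and the replicate numbers used here only name libraries. Depth limits miR-433* alone among the members.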
